A study of Mus musculus with 14 samples.

Results

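The subject here is the genotype by cycle stage interaction in the mouse uterus, that is, how far the difference between HIF2A cKO and WT libraries changed between diestrus and estrus. For each gene the change from diestrus to estrus in WT was subtracted from the same change in HIF2A cKO, on the log2(FPKM + 1) scale. FPKM are fragments per kilobase of transcript scaled to the mapped fragments of the library. The result equals the genotype difference at estrus minus that at diestrus, so a positive interaction means that HIF2A cKO stood higher against WT at estrus than at diestrus. The test covered the 14278 of 31274 gene symbols that reached 1 FPKM in 3 or more of the 14 libraries. RNA came from uterine tissue of adult FVB/N mice, 2 months old and described as unexposed, and an Illumina TruSeq RNA kit was used for sequencing. WT diestrus and HIF2A cKO diestrus had 4 libraries each, numbered 1 to 4 in the labels, and WT estrus and HIF2A cKO estrus had 3 each, numbered 1, 2 and 4. The labels name no Cre driver, no deleted exons and no pooling, and do not state that replicates came from separate animals. The p-values therefore measure only the spread between these libraries, which may be technical. In whole tissue, fewer cells of a type and less RNA per cell cannot be told apart.

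HIF2A, encoded by Epas1, is the oxygen-labile alpha subunit of a transcription factor that pairs with ARNT when oxygen is low and binds hypoxia response elements. Its relative HIF1A uses the same partner and drives many glycolytic genes. In the cycling uterus, progesterone acts through PGR in epithelium and stroma and engages hedgehog signalling from epithelium to stroma, while estrogen acts through ESR1 on epithelial growth and secretion. Diestrus is the luteal, progesterone-dominated phase, and estrus follows the preovulatory rise of estrogen.

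FPKM sums per library ran from 437879 to 497688. Read numbers were not used here and the depth is unknown, so its effect on precision is unknown too. Diestrus libraries varied more than estrus libraries, with a median SD over genes of 0.148 log2 for the WT and 0.166 for the HIF2A cKO diestrus group against 0.0842 and 0.0758 at estrus. Both diestrus libraries numbered 3 stood apart inside their groups. On the second principal component, an axis of the spread between libraries, WT diestrus 3 lay at 41.5 and WT diestrus 1, 2 and 4 at 12.8, 12.4 and 17.1. HIF2A cKO diestrus 3 lay at 13.2 and HIF2A cKO diestrus 1, 2 and 4 at -36.3, -37.7 and -20.3. The WT diestrus range used next includes WT diestrus 3. HIF2A cKO diestrus 3 lay within the range of the WT diestrus libraries for 7625 of the 14278 genes (53.4%), against 38.1% for HIF2A cKO diestrus 1, 35.0% for 2 and 41.8% for 4. Results that rest on it are given with and without it. WT diestrus 2 and 3 also differed from WT diestrus 1 and 4 in some genes. Irg1, which encodes the enzyme that makes itaconate, stood at 0.425, 35.7, 13.6 and 0.867 FPKM in WT diestrus 1 to 4. In HIF2A cKO diestrus 1 to 4 it stood at 0.079, 0.086, 21.7 and 0.068 FPKM. Irg1 was thus high in 3 of the 8 diestrus libraries, 2 labelled WT and 1 labelled HIF2A cKO, and was picked out after its values were seen.

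Defining markers of the tissue were present in every library. Group means of the epithelial gene Epcam lay between 91.8 and 167 FPKM, those of the stromal Dcn between 841 and 1342 and those of the smooth muscle Myh11 between 372 and 451. Skeletal muscle Myh4 was at 0.014 FPKM or less, but other genes of its marker list stood higher. Acta1 averaged 216 FPKM (WT) and 187 FPKM (HIF2A cKO) at diestrus, against 17.0 and 19.2 at estrus. Group means of Tnnt3 lay between 6.23 and 10.5 FPKM and those of Ckm between 0.925 and 1.93. The adipocyte marker list summed to 295 FPKM in HIF2A cKO diestrus 4 and to between 18.2 and 121 in the other libraries. The ribosomal transcript Rn45s was at 1890 FPKM in the same library and 819 in HIF2A cKO estrus 1, and between 208 and 578 elsewhere. Leaving out these 2 libraries gave 11 genes past the threshold described below, against 5 in all 14 libraries.

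Epas1 (chromosome 17, 86753700 to 86833410, mm10) encodes the labelled target. It stood at 31.9, 32.7, 43.5 and 31.2 FPKM in WT diestrus 1 to 4 and at 37.3, 35.1, 45.4 and 40.1 in HIF2A cKO diestrus 1 to 4. At estrus it stood at 34.2, 31.2 and 33.3 FPKM in WT and 45.7, 39.9 and 38.0 in HIF2A cKO. Libraries labelled HIF2A cKO were not low for Epas1, and at estrus all 3 were above all 3 WT libraries. The Epas1 interaction was 0.13 log2 (SE 0.165, limma adjusted p = 0.708), and an exact two-sided permutation test over 1400 arrangements of genotype within stage gave p = 0.563. A total over the gene need not be lower when some exons or some cells carry a deletion. Every direction below therefore rests on the labels.

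In limma, 5 of the 14278 genes passed an adjusted p of 0.05 for the interaction (0.035%), 2 with a positive and 3 with a negative interaction. They were Bnip3 and C030046I01Rik on the positive side and Aqp4, Pura and Ksr1 on the negative side. At an unadjusted p under 0.05 there were 1134 positive (7.94%) and 1377 negative genes (9.64%). The median interaction over all genes was -0.01 log2, so the counts do not come with a general offset. Genotype differences were larger at diestrus for 10111 genes (70.8%), with a median absolute difference of 0.183 log2 there and 0.0902 at estrus. Differences of at least 2-fold numbered 348 at diestrus and 93 at estrus. These sizes are descriptions, since the larger spread at diestrus also enlarges absolute differences there.

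**Figure D1:**
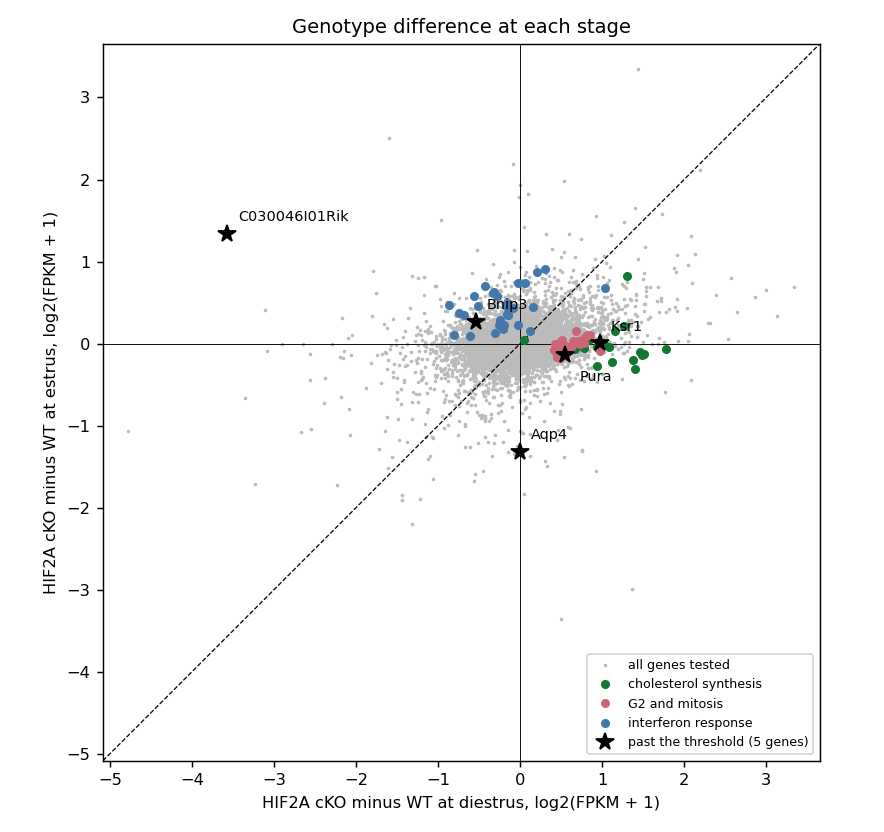
Each point is a gene, with the HIF2A cKO minus WT difference at diestrus on the horizontal axis and at estrus on the vertical axis, both in log2(FPKM + 1). The dashed line marks equal differences, and the distance above or below it is the interaction. Cholesterol synthesis and mitosis genes lie to the right near 0 at estrus, interferon genes lie mostly above the line, and stars mark the 5 genes past the threshold.

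Bnip3 (chromosome 7, 138890836 to 138909519, minus strand), a mitochondrial protein of mitophagy and a textbook target of HIF, turned its genotype difference between the stages. At diestrus it stood at 18.7, 16.8, 19.8 and 19.3 FPKM in WT and at 11.7, 11.2, 14.6 and 12.8 in HIF2A cKO. Its estrus levels were 39.7, 36.9 and 37.7 FPKM in WT and at 45.8, 44.1 and 47.9 in HIF2A cKO. All HIF2A cKO libraries were below all WT libraries at diestrus and above all of them at estrus. The log2 difference was -0.54 (SE 0.0768) at diestrus and 0.26 (SE 0.0887) at estrus, an interaction of 0.80 (SE 0.117, limma adjusted p = 0.0395). The 250 bases before the Bnip3 start are shown because they hold the core of a hypoxia response element (RefSeq, GRCm38.p6, chr7:138909507-138909756, minus strand, printed 5′ to 3′ in the direction of transcription). Capitals mark ACGTG on either strand, here 2 overlapping matches that form CACGTG.
Bnip3: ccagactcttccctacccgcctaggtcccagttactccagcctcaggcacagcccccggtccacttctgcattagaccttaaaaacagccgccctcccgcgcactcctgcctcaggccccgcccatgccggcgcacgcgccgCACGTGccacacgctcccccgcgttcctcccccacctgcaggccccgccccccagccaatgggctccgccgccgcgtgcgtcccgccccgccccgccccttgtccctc
Of 10202 tested genes with an entry in the promoter table, 24.7% held ACGTG in this window, as did 15 of 23 genes of the hypoxia list with an entry. A match is a description of the letters and does not show binding.

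Ksr1 (chromosome 11, 79013440 to 79146407), a scaffold of the RAF-MEK-ERK cascade, differed between genotypes at diestrus. It stood at 5.46, 6.77, 6.61 and 6.55 FPKM in WT diestrus and at 14.7, 15.6, 12.03 and 11.6 in HIF2A cKO diestrus. In the estrus libraries it was at 8.52, 8.10 and 8.29 FPKM in WT and at 8.70, 7.88 and 8.38 in HIF2A cKO. The diestrus groups did not overlap and the estrus groups did. Its difference was 0.97 log2 (SE 0.0926) at diestrus and 0.00 (SE 0.107) at estrus, an interaction of -0.97 (SE 0.141, limma adjusted p = 0.0395). Pura (chromosome 18, 36281097 to 36292535), a single-stranded nucleic acid binding protein, had the same form with very little spread in WT diestrus. It stood at 13.5, 13.3, 13.8 and 13.4 FPKM in WT diestrus and at 19.7, 21.0, 21.0 and 19.4 in HIF2A cKO diestrus. At estrus it stood at 17.1, 19.1 and 17.7 FPKM in WT and at 17.4, 16.0 and 15.2 in HIF2A cKO. In both genes HIF2A cKO diestrus 3 lay with its own group. The Pura difference was 0.55 log2 (SE 0.0558) at diestrus and -0.14 (SE 0.0644) at estrus, an interaction of -0.70 (SE 0.0852, limma adjusted p = 0.0150).

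Aqp4 (chromosome 18, 15389496 to 15410982), a water channel, was the called gene whose genotype difference lay at estrus. It stood at 2.34, 1.49 and 1.62 FPKM in WT estrus and at 0.127, 0.107 and 0.12 in HIF2A cKO estrus. At diestrus it stood at 0.09, 0.07, 0.017 and 0.051 FPKM in WT and at 0.076, 0.052, 0.028 and 0.061 in HIF2A cKO. Aqp4 was above 1 FPKM in the WT estrus libraries and below 0.2 FPKM in the other 11. It therefore entered the test through the WT estrus libraries alone. The log2(FPKM + 1) difference was -0.00 (SE 0.0952) at diestrus and -1.32 (SE 0.110) at estrus, an interaction of -1.32 (SE 0.145, limma adjusted p = 0.00963). This scale understates the change of a gene this low, for which the ratio of mean FPKM of HIF2A cKO to WT was 0.065 at estrus. Aqp4 was the single member past the threshold among 24 tested genes for ion transport and uterine fluid. At an unadjusted p under 0.05 this list held 2 positive and 3 negative members, with Aqp4 among the latter. These counts are near the 7.94% and 9.64% of all genes. The median interaction of the list was -0.07.

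C030046I01Rik stood at 10.2, 6.66, 14.9 and 13.6 FPKM in WT diestrus and had an exact 0 in each HIF2A cKO diestrus library. Its estrus levels were 5.78, 1.79 and 0 FPKM in WT and at 3.73, 5.53 and 8.96 in HIF2A cKO. Its interaction was 4.91 log2 (SE 0.688, limma adjusted p = 0.0395). RefSeq gives this symbol as a synonym of R3hdm4, which has a row of its own at between 51.0 and 91.4 FPKM, so the value is uncertain. An exact 0 can be a failed estimate, and how reads were divided between the rows is not given in the sources used here.

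**Figure D2:**
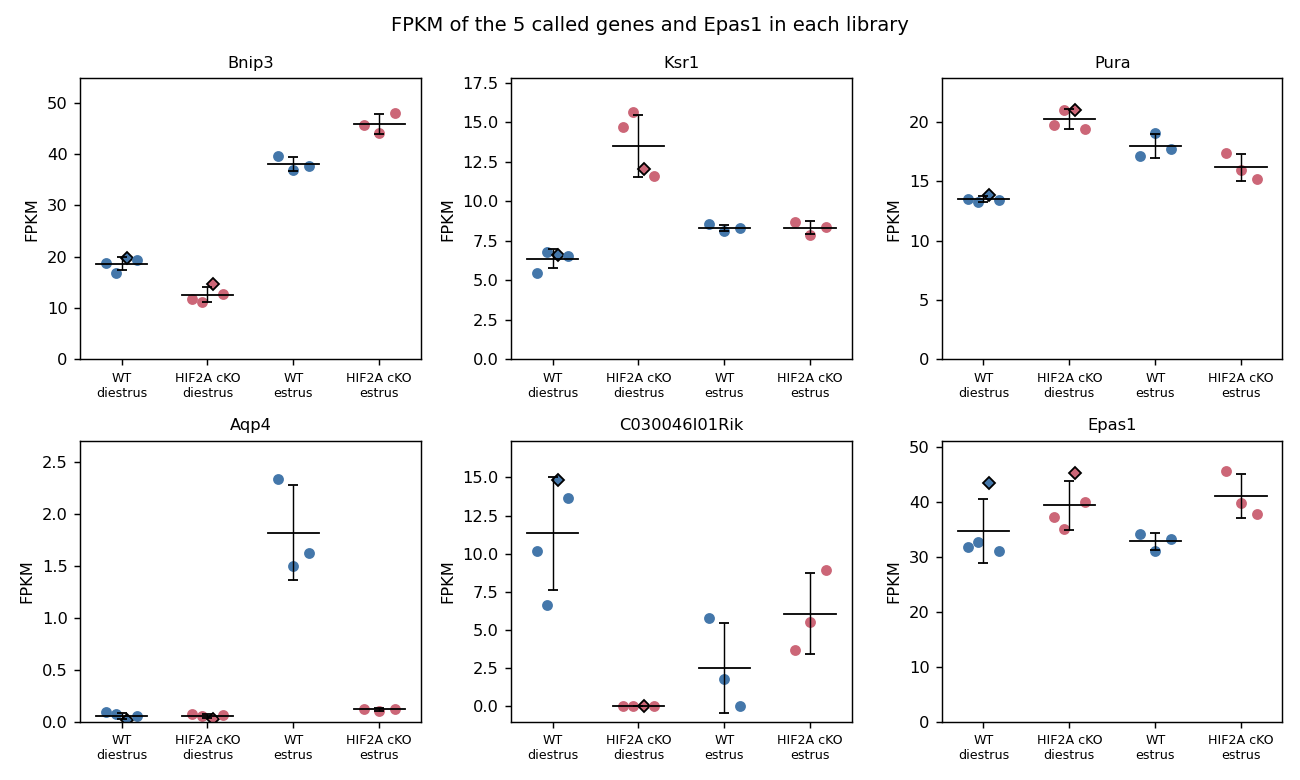
FPKM in each library (points, diamonds for the libraries numbered 3) for the 5 genes past the threshold and Epas1, with group mean (line) and SD (bar), n = 4 at diestrus and 3 at estrus. Bnip3 turns from lower to higher in HIF2A cKO, Ksr1 and Pura separate the genotypes at diestrus, Aqp4 separates them at estrus, and Epas1 is not lower in HIF2A cKO.

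The next 5 genes by p did not pass the threshold, with limma adjusted p from 0.0574 to 0.0771. Foxm1 (chromosome 6, 128362967 to 128376146), the transcription factor that drives mitotic genes, stood at 5.96, 6.79, 5.72 and 5.44 FPKM in WT diestrus and at 8.81, 9.90, 8.68 and 9.28 in HIF2A cKO diestrus. In the estrus libraries it was at 1.25, 1.16 and 1.32 FPKM in WT and at 1.11, 0.965 and 1.15 in HIF2A cKO. All HIF2A cKO libraries were above WT at diestrus and below WT at estrus, with an interaction of -0.66 (SE 0.112). Get4, a factor in insertion of tail-anchored membrane proteins, had a diestrus difference of 0.45 and an estrus difference of -0.03, an interaction of -0.48 (SE 0.0788). Lypd8 encodes a secreted LY6 family protein known from the gut. It was at 0.13, 0.061 and 0.176 FPKM in WT estrus, at 3.00, 5.01 and 1.62 in HIF2A cKO estrus and at no more than 0.152 at diestrus, an interaction of 1.73 (SE 0.282). It entered the test through the HIF2A cKO estrus libraries alone. The cDNA clone models AK215051 (interaction 1.81) and AK197526 (2.90) were listed at 0 in most libraries. They reached the filter through HIF2A cKO estrus and WT diestrus alone, respectively.

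Among the receptors and the related alpha subunit, no interaction passed the threshold. Esr1, estrogen receptor alpha, stood at 89.3, 88.8, 74.8 and 82.5 FPKM in WT diestrus and at 112, 110, 93.2 and 108 in HIF2A cKO diestrus. At estrus it stood at 82.6, 90.6 and 92.4 FPKM in WT and at 85.7, 88.8 and 73.3 in HIF2A cKO. The diestrus groups did not overlap, and the interaction was -0.43 log2 (SE 0.129, limma adjusted p = 0.151). Pgr, the progesterone receptor, had an interaction of -0.17 (SE 0.231, limma adjusted p = 0.726), and Hif1a one of -0.36 (SE 0.212, limma adjusted p = 0.387).

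The number of genes past the threshold turned on single libraries. Without HIF2A cKO diestrus 3 it was 1181, without WT diestrus 2 it was 297, without HIF2A cKO diestrus 4 it was 26, and without each of the other libraries it was between 0 and 5. Leaving out both diestrus libraries numbered 3, so that every group held the numbers 1, 2 and 4, gave 1204 genes past the threshold of 14160 tested. Of these 574 had a positive (4.05%) and 630 a negative interaction (4.45%). For 1113 of the 1204 (92.4%) the genotype difference was larger at diestrus, as for 72.4% of all genes tested in that fit. HIF2A cKO was higher than WT there in 586 and lower in 527. For 91 the genotype difference was larger at estrus, with HIF2A cKO higher in 47 and lower in 44. Among all genes tested, differences of at least 2-fold at diestrus numbered 467 in that fit and 348 with all 14 libraries. The 5 genes kept their sign whichever library was left out, but not their place past the threshold. Bnip3 and Ksr1 stayed past it without WT diestrus 2, HIF2A cKO diestrus 3 or HIF2A cKO diestrus 4 and missed it without any of the other 11 libraries (highest limma adjusted p 0.162 for Bnip3 and 0.165 for Ksr1). Pura missed it without WT diestrus 1, HIF2A cKO diestrus 2, WT estrus 2, HIF2A cKO estrus 2 or HIF2A cKO estrus 4 (highest adjusted p 0.0819). Aqp4 missed it without HIF2A cKO estrus 4 (adjusted p 0.0568) and was not tested without any one WT estrus library, since it then fell below the filter. C030046I01Rik stayed past it in 5 of 14 cases (highest adjusted p 0.155). The count from all 14 libraries is the main result, and gene groups are described below with both counts. Beside those counts stand the shares over all genes. They were 7.94% positive and 9.64% negative at an unadjusted p under 0.05 with all libraries. Without the libraries numbered 3, 4.05% passed the threshold on the positive and 4.45% on the negative side. The emphasis on the count without the libraries numbered 3 was chosen after the values were seen. HIF2A cKO diestrus 3 was picked out once its values were seen to lie near WT for many genes. Its removal can by itself enlarge genotype differences at diestrus and lower the spread there. Counts and adjusted p-values from fits without it are therefore descriptions and no independent support.

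**Figure D3:**
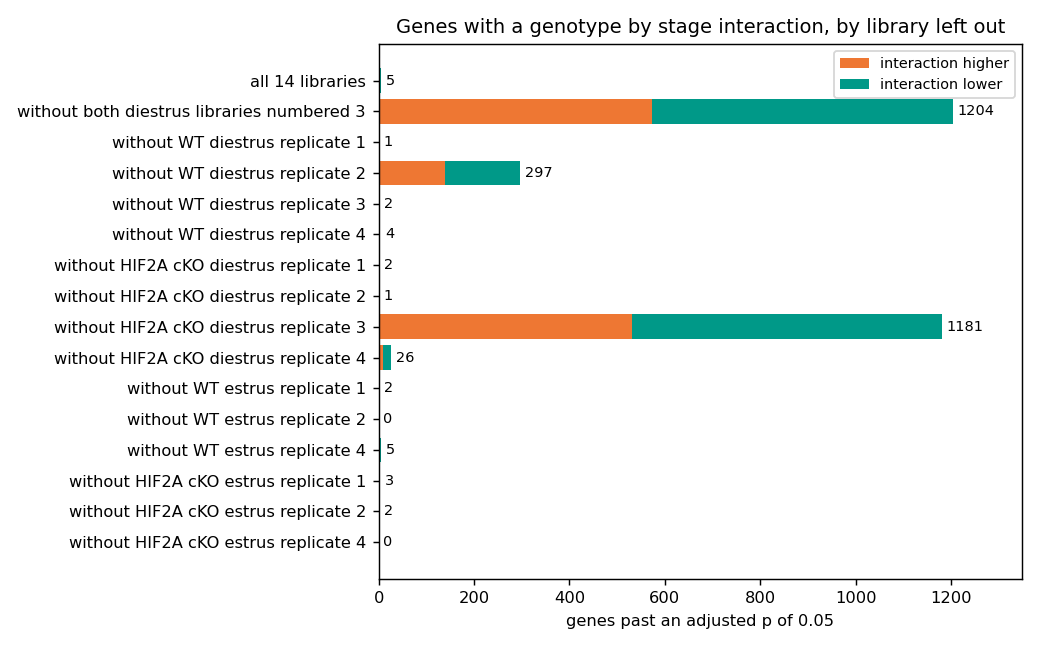
Bars give the number of genes past an adjusted p of 0.05 for the interaction in limma, positive and negative stacked, with all 14 libraries, without both diestrus libraries numbered 3 and without each library in turn. The count is 5 with all libraries and 1181 without HIF2A cKO diestrus 3.

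Cholesterol synthesis genes had the lowest median interaction of the 45 lists. HIF2A cKO stood above WT at diestrus and level with it at estrus. Of 23 tested genes 22 had a negative interaction and 20 had an unadjusted p under 0.05 on that side, with none on the positive side and none past the adjusted threshold in limma. The median interaction was -1.02 log2, made of a median genotype difference of 1.03 at diestrus and -0.06 at estrus. Without the diestrus libraries numbered 3, 20 of the 23 passed the threshold, all negative, with a median of -1.28. Markers of luminal and general epithelium summed to between 688 and 1009 FPKM in WT diestrus and 827 and 1461 in HIF2A cKO diestrus, and to between 1722 and 2033 and between 2117 and 2334 at estrus. Their part in the cholesterol and mitosis results was not tested. In HIF2A cKO diestrus 3, 17 of the 23 genes lay within the WT range, while in the other 3 HIF2A cKO diestrus libraries 21 of 23 lay above all WT libraries, as did 18.2% of all genes tested.

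Sqle, squalene epoxidase, stood at 9.50, 19.8, 10.1 and 7.91 FPKM in WT diestrus and at 46.8, 47.0, 15.0 and 38.5 in HIF2A cKO diestrus, against 3.20 to 4.20 over the 6 estrus libraries. Fdps, farnesyl diphosphate synthase, stood at 15.8, 34.8, 20.2 and 13.6 FPKM in WT diestrus and at 88.3, 88.9, 22.9 and 57.8 in HIF2A cKO diestrus. HIF2A cKO diestrus 3 lay inside the WT range for Sqle and Fdps, as did no other HIF2A cKO diestrus library.

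Srebf2, the transcription factor that induces these genes when sterols are low, had an interaction of -1.04 (limma adjusted p = 0.147), and Insig1, which retains its precursor in the endoplasmic reticulum, one of -1.01 (0.226). Ebp, a sterol isomerase, had an interaction of 0.00.

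The promoters of 2 members are shown because the genes of this list stood high together in HIF2A cKO diestrus and because CCAAT, the element bound by the factor NF-Y, is common among them (250 bases before the start, RefSeq, GRCm38.p6, 5′ to 3′ in the direction of transcription). Sc4mol, a sterol methyl oxidase listed in the table as Msmo1 (chr8:64733579-64733828, minus strand), had an interaction of -1.71. Hmgcs1, HMG-CoA synthase (chr13:119690101-119690350, plus strand), had one of -1.01 and was shown because it is the single member with TCACCCCAC, a form of the sterol regulatory element. Capitals mark CCAAT on either strand (ATTGG is its reverse complement), which occurred 3 times in each, and TCACCCCAC.
Sc4mol: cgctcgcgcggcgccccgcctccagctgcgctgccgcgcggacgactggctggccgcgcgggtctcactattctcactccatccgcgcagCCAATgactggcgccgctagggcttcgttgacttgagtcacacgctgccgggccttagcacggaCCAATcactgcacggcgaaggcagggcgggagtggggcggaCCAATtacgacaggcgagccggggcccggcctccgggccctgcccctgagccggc
Hmgcs1: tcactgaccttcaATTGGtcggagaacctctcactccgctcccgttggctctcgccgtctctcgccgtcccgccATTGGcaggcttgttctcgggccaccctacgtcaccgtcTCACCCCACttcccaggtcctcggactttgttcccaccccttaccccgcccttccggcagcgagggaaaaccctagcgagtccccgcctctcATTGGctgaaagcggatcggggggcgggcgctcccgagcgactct
CCAAT was present in 16 of 16 list members with an entry, against 40.0% of tested genes and 33.8% of all promoters in the table. TCACCCCAC was present in 1 of 16, against 0.647% of tested genes. These strings were picked from 10 searched in 2 windows and 6 gene lists after the results were seen, and the numbers are descriptions. Absence of a string says only that these letters are not in the window.

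Genes of G2 and mitosis had the same form with less spread. All 25 tested genes had a negative interaction and 24 had an unadjusted p under 0.05, with a median interaction of -0.66 log2, a diestrus difference of 0.58 and an estrus difference of -0.03. None passed the adjusted threshold in limma with all 14 libraries, and 18 passed without the libraries numbered 3, all negative. In 22 of the 25 genes all 4 HIF2A cKO diestrus libraries were above all 4 WT libraries, as in 8.80% of all genes tested. For 3 genes HIF2A cKO diestrus 3 lay within the WT range, the fewest of the 12 lists described. Summed FPKM ran from 284 to 311 in WT diestrus and from 384 to 557 in HIF2A cKO diestrus, against 25.7 to 37.9 in WT estrus and 28.8 to 34.2 in HIF2A cKO estrus. At these low estrus levels the +1 in the logarithm compresses differences. With 0.1 in its place the median interaction was -0.72.

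Plk1, polo-like kinase, stood at 10.7, 9.80, 8.45 and 10.5 FPKM in WT diestrus and at 20.6, 24.2, 14.8 and 22.4 in HIF2A cKO diestrus. In the estrus libraries it was at 1.03, 0.779 and 1.07 FPKM in WT and at 0.902, 0.796 and 1.06 in HIF2A cKO. Its interaction was -0.999 (SE 0.198, limma adjusted p = 0.0866), with no overlap at diestrus and overlap at estrus. Ube2c, the ubiquitin-conjugating enzyme of the anaphase-promoting complex, stood at 28.5, 29.4, 25.0 and 30.3 FPKM in WT diestrus and at 60.9, 70.6, 40.6 and 58.6 in HIF2A cKO diestrus, an interaction of -1.07 (SE 0.258, limma adjusted p = 0.117). Kif20a, a kinesin of the central spindle, stood at 8.72, 8.38, 8.82 and 8.15 FPKM in WT diestrus and at 13.3, 15.2, 13.6 and 15.9 in HIF2A cKO diestrus, an interaction of -0.67 (SE 0.117, limma adjusted p = 0.0781). In these 3 genes HIF2A cKO diestrus 3 was above every WT diestrus library. Mki67, the proliferation marker, had the smallest interaction of the list at -0.43.

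The promoters of Ube2c (chr2:164769679-164769928, plus strand) and Plk1 (chr7:122159185-122159434, plus strand) are shown as those of the list's 2 largest interactions. TTTGAA is a form of the core of the cell cycle homology region bound by the DREAM complex. Capitals mark CCAAT and TTTGAA on either strand, where ATTGG and TTCAAA are the reverse complements (RefSeq, GRCm38.p6, 250 bases before the start, 5′ to 3′).
Ube2c: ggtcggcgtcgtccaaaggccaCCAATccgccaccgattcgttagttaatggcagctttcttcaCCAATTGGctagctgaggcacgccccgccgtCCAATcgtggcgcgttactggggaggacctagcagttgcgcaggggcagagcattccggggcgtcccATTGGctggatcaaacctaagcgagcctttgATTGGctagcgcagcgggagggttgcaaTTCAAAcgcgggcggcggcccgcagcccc
Plk1: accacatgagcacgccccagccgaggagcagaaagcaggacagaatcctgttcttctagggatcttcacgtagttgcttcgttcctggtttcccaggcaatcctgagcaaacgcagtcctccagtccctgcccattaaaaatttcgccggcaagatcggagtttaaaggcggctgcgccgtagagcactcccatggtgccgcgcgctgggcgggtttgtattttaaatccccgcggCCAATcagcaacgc
CCAAT was present in 19 of 21 list members with an entry and TTTGAA in 8 of 21, against 40.0% and 12.4% of tested genes. In the window from 250 bases before to 50 after the start, TTTGAA was present in 16 of 21, against 13.9% of tested genes. Ube2c held 6 matches to CCAAT, 2 of them overlapping, and 1 to TTTGAA, and Plk1 held 1 and 0. The string TTTAAA, also searched, stands unmarked in the Plk1 window. In the 250 bases before the start it was present in 4 of 21 list members, against 10.4% of tested genes.

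S phase and replication genes showed a smaller median interaction, -0.42 log2 over 28 tested genes, with 27 negative and 8 with an unadjusted p under 0.05. Of all genes 9.64% were negative at that p. None passed the adjusted threshold in limma with all libraries. Without the libraries numbered 3, 4 passed, all negative, as did 4.45% of all genes on that side. All 4 HIF2A cKO diestrus libraries were above WT in 1 of the 28 genes, a share below the 8.80% of all genes. HIF2A cKO diestrus 3 lay within the WT range in 25 of the 28. The other 3 HIF2A cKO diestrus libraries were all above WT in 10 of the 28, against 18.2% of all genes.

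Of 25 estrogen response genes 22 had a negative interaction, 7 with an unadjusted p under 0.05 against 2 on the positive side, and the median was -0.62 log2 (0.78 at diestrus, 0.23 at estrus). Of all genes 9.64% were negative and 7.94% positive at that p. None passed in limma with all libraries. Without the libraries numbered 3, 6 passed on the negative side, as did 4.45% of all genes. Inhbb, the beta B subunit of activin and inhibin, stood at 12.8, 47.2, 6.89 and 5.50 FPKM in WT diestrus and at 204, 211, 60.2 and 133 in HIF2A cKO diestrus. At estrus it stood at 28.2, 22.0 and 27.4 FPKM in WT and at 49.8, 39.2 and 37.8 in HIF2A cKO. HIF2A cKO was above WT in every library of both stages, with a difference of 3.34 log2 at diestrus and 0.69 at estrus (interaction -2.65, SE 0.823, limma adjusted p = 0.160). Gadd45g, a stress-induced growth arrest gene, stood at 17.5, 50.9, 30.6 and 13.9 FPKM in WT diestrus and at 161, 194, 104 and 153 in HIF2A cKO diestrus, while all 6 estrus libraries lay between 19.6 and 24.0 (interaction -2.47, SE 0.476, limma adjusted p = 0.0866). Ccnd1, cyclin D1, differed the other way in time. It overlapped at diestrus and stood at 23.4, 21.6 and 19.7 FPKM in WT estrus and at 12.9, 12.8 and 13.1 in HIF2A cKO estrus (interaction -0.93, SE 0.172, limma adjusted p = 0.0781).

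Progesterone response genes lay on the other side. Of 21 tested genes 15 had a positive interaction, 7 with an unadjusted p under 0.05 against 1 negative, and the median was 0.60 log2 (-0.67 at diestrus, -0.07 at estrus). Of all genes 7.94% were positive and 9.64% negative at that p. None passed in limma with all libraries. Without the libraries numbered 3, 10 positive and 1 negative of 19 tested passed, against 4.05% and 4.45% of all genes. Ihh, the epithelial hedgehog ligand induced by progesterone, stood at 22.99, 19.6, 26.8 and 22.5 FPKM in WT diestrus and at 0.377, 0.773, 16.9 and 3.49 in HIF2A cKO diestrus. Its estrus levels were 1.17, 2.35 and 1.31 FPKM in WT and at 0.163, 0.174 and 0.307 in HIF2A cKO. All HIF2A cKO libraries were below all WT libraries at both stages, with HIF2A cKO diestrus 3 close to WT. The interaction was 1.60 (SE 0.901, limma adjusted p = 0.368), and 2.27 (adjusted p = 0.0202) without the libraries numbered 3.

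Nr2f2, the stromal receptor COUP-TFII that acts below hedgehog, was lower in all 4 HIF2A cKO diestrus libraries than in any WT diestrus library. HIF2A cKO diestrus 3 lay nearest to WT for Nr2f2. Nr2f2 stood at 69.2, 57.0, 76.0 and 73.7 FPKM in WT diestrus and at 38.0, 38.7, 52.3 and 45.3 in HIF2A cKO diestrus. In all 6 estrus libraries it lay between 36.0 and 40.7 (interaction 0.67, SE 0.163, limma adjusted p = 0.117). Ptch1, the hedgehog receptor and a target of the pathway, stood at 54.6, 44.9, 61.9 and 56.0 FPKM in WT diestrus and at 12.4, 13.4, 43.6 and 19.6 in HIF2A cKO diestrus (interaction 1.24, SE 0.44, limma adjusted p = 0.201). Zbtb16, a progesterone-induced zinc finger protein, stood at 8.59, 5.64, 9.24 and 12.03 FPKM in WT diestrus and at 1.71, 1.54, 11.2 and 1.30 in HIF2A cKO diestrus. For Zbtb16, HIF2A cKO diestrus 3 stood inside the WT range and below it for Nr2f2 and Ptch1. Fkbp5 and Tsc22d3, which also respond to glucocorticoids, had interactions of 0.60 and 0.98. Cebpb was the member with a negative interaction at an unadjusted p under 0.05, at -1.25 (limma adjusted p = 0.124). Of the 17 hedgehog pathway genes, which share Ihh, Ptch1, Gli1 and Nr2f2 with this list, 4 had a positive interaction at an unadjusted p under 0.05, none a negative one, and the median was 0.23. Over all genes the shares at that p were 7.94% positive and 9.64% negative. No hedgehog gene passed in limma with all libraries. Without both diestrus libraries numbered 3, 5 of the 17 passed, all positive, against 4.05% of all genes on that side. The target Gli1 itself had an interaction of -0.15, since it was lower in HIF2A cKO by 0.43 at diestrus and 0.58 at estrus. The receptor component Smo (-0.20) and the inhibitor Sufu (0.09) had small interactions. Markers of glandular epithelium, summed to between 131 and 253 FPKM in WT diestrus and 78.5 and 140 in HIF2A cKO diestrus, and to between 40.8 and 49.8 and between 28.8 and 35.4 at estrus. The defining marker Foxa2 was above 0 in every library, while Prss28 was at 0 in 7 libraries, Ttr in 5, Spink3 and Wfdc3 in 2 each and Prss29 in 1. The stromal fibroblast markers, which include Nr2f2 and Hoxa10, were at 0 in no library. Of 15 tested, 13 had a positive interaction, and the median was 0.36. At an unadjusted p under 0.05, 4 were positive and 1 negative, against 7.94% and 9.64% of all genes. They summed to between 2722 and 3864 FPKM in WT diestrus and 2722 and 3664 in HIF2A cKO diestrus, and to between 2286 and 2500 and between 2622 and 2702 at estrus. The part of both marker lists in these results was not tested.

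**Figure D4:**
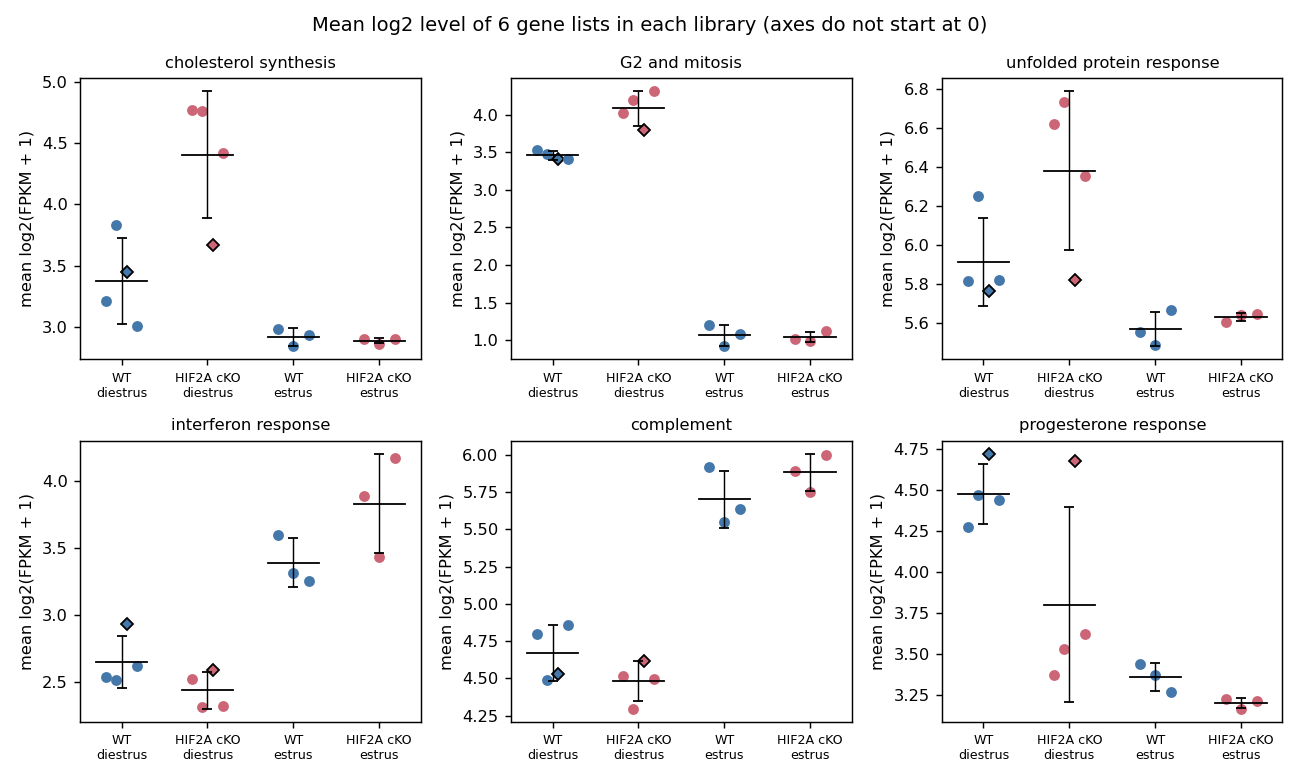
Mean log2(FPKM + 1) of 6 gene lists in each library (points, diamonds for the libraries numbered 3), with group mean (line) and SD (bar), n = 4 at diestrus and 3 at estrus. HIF2A cKO diestrus 3 lies apart from its group for cholesterol synthesis, the unfolded protein response and progesterone response. It stays above WT for G2 and mitosis. The vertical axes differ and do not start at 0.

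Interferon response genes had the highest median interaction of the 45 lists with all 14 libraries, at 0.64 log2 over 30 tested genes. Without the libraries numbered 3 it was 0.54, below mesothelial markers (0.59) and progesterone response (0.56). Of these 29 were positive and 13 had an unadjusted p under 0.05, none negative, and none passed in limma with all libraries. The median genotype difference was -0.20 at diestrus and 0.44 at estrus, so it changed sign. Without the libraries numbered 3, 3 of the 30 genes passed, Ifit2, Gbp3 and Xaf1, and 4.05% of all genes passed on that side. Ifit2, an interferon-induced RNA-binding protein, stood at 4.43, 4.01, 4.87 and 4.41 FPKM in WT diestrus and at 1.89, 1.39, 3.21 and 2.18 in HIF2A cKO diestrus. In the estrus libraries it was at 14.1, 14.6 and 12.8 FPKM in WT and at 13.6, 13.3 and 18.3 in HIF2A cKO. It was below WT in every HIF2A cKO diestrus library and overlapped at estrus, with an interaction of 0.91 (SE 0.228, limma adjusted p = 0.121). Ifit1 had the largest interaction of the list, 1.34 (SE 0.416, limma adjusted p = 0.160). It stood at 2.23, 1.42, 3.05 and 2.94 FPKM in WT diestrus and at 0.75, 0.638, 1.05 and 0.895 in HIF2A cKO diestrus. At estrus Ifit1 stood at 9.10, 4.81 and 4.20 FPKM in WT and at 9.44, 4.62 and 12.7 in HIF2A cKO, which overlapped.

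The estrus side of this list varied between libraries. Irf7, the factor that amplifies interferon signalling, stood at 25.2, 21.8 and 17.9 FPKM in WT estrus and at 35.4, 21.7 and 44.4 in HIF2A cKO estrus, so HIF2A cKO estrus 2 lay with WT (interaction 0.87, SE 0.306, limma adjusted p = 0.200). Bst2, tetherin, was the member with a negative interaction (-0.35), with HIF2A cKO above WT in every library of both stages.

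Complement genes leaned the same way, with a median interaction of 0.44 over 18 tested genes and 9 positive and no negative member at an unadjusted p under 0.05. Of all genes 7.94% were positive and 9.64% negative at that p. None passed in limma with all libraries. Without the libraries numbered 3, 4 passed on the positive side, as did 4.05% of all genes. Serping1, the inhibitor of C1, stood at 343, 258, 379 and 346 FPKM in WT diestrus and at 243, 203, 343 and 189 in HIF2A cKO diestrus, and at 865, 700 and 773 in WT estrus and 852, 900 and 975 in HIF2A cKO estrus (interaction 0.69, SE 0.262, limma adjusted p = 0.223). Both its stages overlapped. The macrophage and dendritic marker list, which shares C1qa, C1qb and C1qc with complement, moved with these groups. It summed to between 477 and 668 FPKM in WT diestrus and 424 and 491 in HIF2A cKO diestrus, and to between 913 and 1034 and between 937 and 1222 at estrus. Of its 14 tested markers 13 had a positive interaction, 6 with an unadjusted p under 0.05, and the median was 0.40. No defining marker was at 0 in any library. Its part in the interferon and complement results was not tested.

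Genes of the hypoxia response did not move as a group. Of 32 tested genes outside glycolysis, Bnip3 passed, and 5 were positive and 5 negative at an unadjusted p under 0.05. Shares over all genes at that p were 7.94% and 9.64%. The median interaction of the list was 0.00 (-0.04 without the libraries numbered 3). Besides Bnip3, the positive side held its paralog Bnip3l (0.41), the MYC antagonist Mxi1 (0.70), the lipoprotein receptor Vldlr (0.64) and the oxidoreductase Ero1l (0.37). Mxi1 stood at 11.1, 8.48, 11.8 and 11.7 FPKM in WT diestrus and at 6.60, 6.18, 8.498 and 6.23 in HIF2A cKO diestrus. At estrus it stood at 18.2, 17.99 and 18.5 FPKM in WT and at 20.6, 19.9 and 19.4 in HIF2A cKO, above WT in every library (interaction SE 0.160, limma adjusted p = 0.108). The negative side held the prolyl hydroxylase Egln3 (-1.27), Angptl4 (-0.97), the collagen lysyl hydroxylase Plod2 (-0.82), adrenomedullin Adm (-0.71) and Vegfa (-0.45). Egln3 stood at 4.03, 3.28, 1.90 and 3.87 FPKM in WT diestrus and at 10.5, 9.73, 2.69 and 6.82 in HIF2A cKO diestrus, and at 33.4, 26.9 and 30.2 in WT estrus and 23.3, 17.9 and 28.7 in HIF2A cKO estrus. For Egln3 the genotype difference was 0.89 at diestrus and -0.38 at estrus (limma adjusted p = 0.213). Without the libraries numbered 3, 5 genes of the list were past the threshold on the positive and 3 on the negative side. Shares over all genes there were 4.05% and 4.45%.

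Glycolysis genes had nearly equal median genotype differences at the 2 stages. The median over 20 tested genes was 0.38 log2 at diestrus and 0.37 at estrus, and the median interaction was 0.04 (-0.02 without the libraries numbered 3). None passed in limma with all libraries. At an unadjusted p under 0.05 there were 5 positive members and 1 negative member, against 7.94% and 9.64% of all genes. In the fit without the libraries numbered 3, 2 glycolysis genes passed, both positive, against 4.05% of all genes on that side. Eno1, enolase, had differences of 0.62 and 0.66, and Aldoa, aldolase, 0.36 and 0.38. Pdk1, the kinase that shuts pyruvate dehydrogenase, had -0.02 and 0.77 (interaction 0.79, SE 0.279, limma adjusted p = 0.201). It stood at 5.39, 4.86 and 5.29 FPKM in WT estrus and at 10.9, 9.24 and 8.56 in HIF2A cKO estrus, without overlap. The lactate exporter Slc16a3 had 0.59 and 1.34 (limma adjusted p = 0.205).

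Of 23 genes of the unfolded protein response 22 had a negative interaction, 3 with an unadjusted p under 0.05, against 9.64% of all genes on that side, with a median of -0.40 (0.42 at diestrus, 0.03 at estrus). None passed in limma with all libraries. Without the libraries numbered 3, 2 passed on the negative side, as did 4.45% of all genes, so these counts of 3 and 2 are few and near the shares over all genes. In that fit 16 of the 23 were negative at an unadjusted p under 0.05, as were 2117 of all 14160 genes tested. HIF2A cKO diestrus 3 lay within the WT range in 16 of the 23. The other 3 HIF2A cKO diestrus libraries were all above WT in 17 of the 23, as in 18.2% of all genes. Among 19 circadian clock genes 7 had a positive and 1 a negative interaction at an unadjusted p under 0.05, and the median was 0.36. Shares over all genes at that p were 7.94% and 9.64%. No clock gene passed in limma with all libraries. In the fit without the libraries numbered 3, 4 positive and 1 negative passed, against 4.05% and 4.45% of all genes. Nr1d1, the repressor REV-ERB alpha, stood at 12.8, 11.4, 10.3 and 12.1 FPKM in WT diestrus and at 8.80, 8.36, 10.9 and 7.73 in HIF2A cKO diestrus. Its estrus levels were 27.4, 19.7 and 30.7 FPKM in WT and at 41.3, 42.2 and 36.6 in HIF2A cKO, above WT in every library (interaction 0.98, SE 0.197, limma adjusted p = 0.0866). Dbp, a clock output factor, had a genotype difference of -0.73 at diestrus and 0.34 at estrus (interaction 1.07, SE 0.285, limma adjusted p = 0.135). The labels give no time of day of collection.

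**Figure D5:**
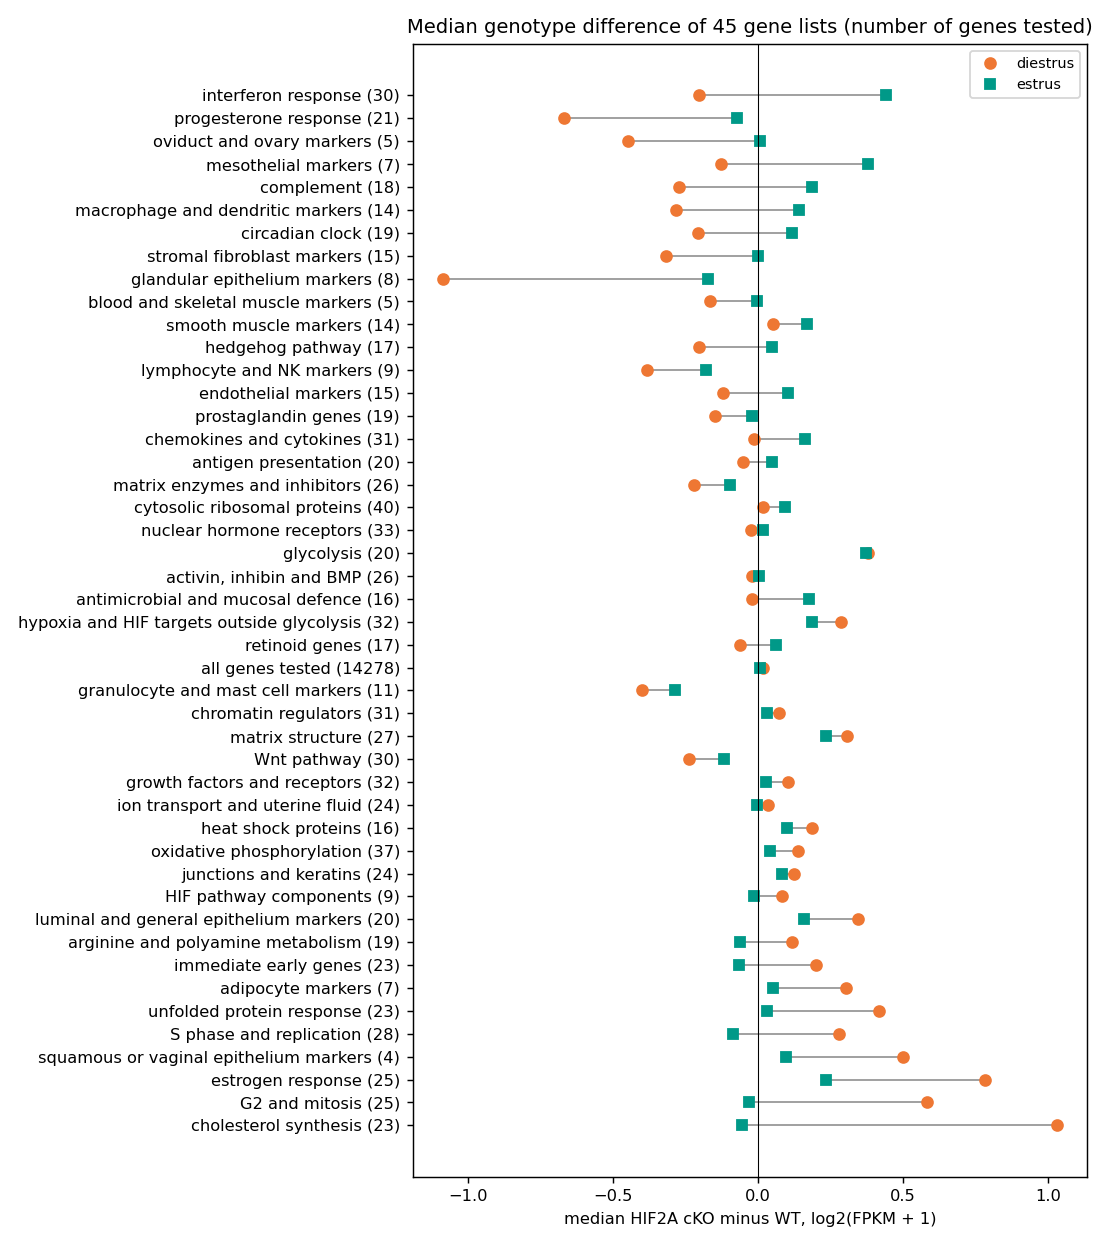
Median HIF2A cKO minus WT difference, in log2(FPKM + 1), at diestrus (circles) and estrus (squares) for all 45 gene lists and all tested genes, ordered by median interaction. Cholesterol synthesis lies at 1.03 and -0.06, interferon response at -0.20 and 0.44, and glycolysis at 0.38 and 0.37.

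Among genes past the threshold without both diestrus libraries numbered 3, the largest interactions are given as values beside those of all 14 libraries, in which none of these genes passed. On the positive side, Ctla2a, a cathepsin inhibitor, stood at 893, 1115, 3485 and 1134 FPKM in WT diestrus and at 122, 130, 1316 and 152 in HIF2A cKO diestrus. In the estrus libraries it was at 1010, 1177 and 1327 FPKM in WT and at 715, 1013 and 864 in HIF2A cKO. HIF2A cKO diestrus 3 was above 3 of the 4 WT libraries and the estrus groups overlapped narrowly. Its interaction was 2.12 (SE 0.996, limma adjusted p = 0.292), and 2.50 (adjusted p = 0.000803) without the libraries numbered 3. Ndp, the norrin ligand of Wnt receptors, stood at 17.0, 23.3, 25.8 and 20.4 FPKM in WT diestrus and at 1.22, 1.14, 17.7 and 3.88 in HIF2A cKO diestrus, against 3.66 to 4.68 in the 6 estrus libraries. Sfrp2, a secreted Wnt inhibitor, stood at 66.9, 50.1, 70.9 and 74.6 FPKM in WT diestrus and at 11.0, 11.1, 52.1 and 22.2 in HIF2A cKO diestrus, against 50.7 to 65.0 at estrus. In these genes HIF2A cKO diestrus 1, 2 and 4 were below all WT libraries. Others on this side were Angptl7, Hdc (histidine decarboxylase, which makes histamine), Maob (monoamine oxidase B), Ihh, Zbtb16, the sulfotransferase Sult1d1, the dendritic cell surface protein Cd83, the activin-binding protein Fst and the ribonuclease Rnase1.

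On the negative side, Nppc, the precursor of C-type natriuretic peptide, stood at 0.414, 3.88, 0.536 and 0.415 FPKM in WT diestrus and at 43.1, 41.9, 2.99 and 10.6 in HIF2A cKO diestrus. All 6 estrus libraries were below 1 FPKM. Its interaction was -2.79 (SE 0.998, limma adjusted p = 0.204), and -3.38 (adjusted p = 0.0242) without the libraries numbered 3. Hrh1, the histamine H1 receptor, stood at 0.414, 0.413, 0.187 and 0.384 FPKM in WT diestrus and at 6.03, 8.71, 0.736 and 4.77 in HIF2A cKO diestrus, without overlap, and between 0.491 and 0.601 at estrus. Crabp1, a retinoic acid binding protein, stood at 4.37, 8.06, 3.24 and 4.88 FPKM in WT diestrus and at 48.2, 60.0, 15.1 and 36.9 in HIF2A cKO diestrus, again without overlap. At estrus Crabp1 was at 0.765, 1.08 and 0.459 FPKM in WT and at 1.74, 1.095 and 1.08 in HIF2A cKO. Il33, an alarmin cytokine, was the gene of this group with its difference at estrus, at 16.0, 18.7 and 14.5 FPKM in WT and 4.48, 7.26 and 4.93 in HIF2A cKO. Its diestrus groups overlapped, and its interaction was -1.73 (SE 0.552, limma adjusted p = 0.170). Others on this side were Inhbb, Gadd45g, the sulfotransferase Chst13, the receptor activity modifying protein Ramp3, the kinase Nrk, Sc4mol and Fdps.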

How the data were processed

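Uterine RNA of 14 mouse libraries in 4 groups was compared. The deposited FPKM values were made by the authors with TopHat2 2.0.4 and Cufflinks 2.0.2 on mm10, per the submitters' processing notes. No further setting is recorded in the notes or labels read for this work. Depth is unknown, so no interval or detection limit was set.

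limma 3.58.1 (R 4.3.3) fitted the interaction to log2(FPKM + 1) values, with 4 group means, a trended empirical Bayes prior and Benjamini-Hochberg adjustment over all genes tested. The threshold was an adjusted p of 0.05. Genes that reached 1 FPKM in fewer than 3 libraries were left out. So were 7 genes that had an exact 0 in a whole group while another group averaged 50 FPKM or more: Ltf, Fcgbp, Eef1a1, C3, Col1a1, Col1a2 and Col3a1.

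Named genes were Epas1, Hif1a, Esr1, Pgr, genes past the threshold, and the 10 of smallest p. By a similar rule the 12 highest and 12 lowest interactions were named without the libraries numbered 3, among genes called there whose highest group averaged 5 FPKM or more. A gene that this rule names is not reported here. That use of the rule, the choice of the 12 of 45 lists described and of the genes named within them were made after the values were seen. The comparison, the lists and the tests were all chosen with earlier results of these data known, and 1 list's direction is no independent support for another's. Gene coordinates come from GENCODE M21 (mm10) and promoters from RefSeq GRCm38.p6 (python 3.11.15, pandas 2.3.3). Pseudocounts, filters, scaling, priors, library weights, replicate blocks and left-out libraries were varied.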

Additional observations from a re-analysis of the deposited data

Results flagged for a closer look

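In groups of 4, the gap between an extreme library and its nearest neighbour was set against the whole range of the group (Dixon's test at 95%). Of 76 groups tested 16 held such a library, and chance gives about 1 in 20. These lay in a library numbered 3 in 12 groups (WT diestrus 3 in 4, HIF2A cKO diestrus 3 in 8) and in WT diestrus 2 in 4. The genes tested include those named because their interaction was large without the libraries numbered 3, a choice that favours such gaps.

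In HIF2A cKO diestrus 3 the outlying values were 98.5 FPKM for Angptl7, 17.7 for Ndp, 83.3 for Hdc (histidine decarboxylase), 1316 for Ctla2a, 69.6 for Maob, 11.2 for Zbtb16, 35.9 for Sult1d1 and 9.07 for Fst, all above the other 3 libraries of that group. In WT diestrus 3 they were 43.5 FPKM for Epas1, 3485 for Ctla2a and 43.2 for Fst, above the group, and 0.187 for Hrh1, below it. In WT diestrus 2 they were 3.88 FPKM for Nppc, 6.58 for Nrk, 0.046 for AK215051 and 0.036 for Lypd8, above the group. The last 2 are near 0, where the other WT diestrus libraries were listed at 0.

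With all 14 libraries, the limma test of the interaction passed the threshold in Aqp4 (-1.32 log2), Bnip3 (0.80), C030046I01Rik (4.91), Ksr1 (-0.97) and Pura (-0.70). None of these genes stayed past it whichever library was left out. Aqp4 entered the test through the WT estrus libraries alone, and the exact zeros of C030046I01Rik can be failed estimates.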

How the results depend on the processing

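With all 14 libraries limma called 5 genes, 2 higher and 3 lower (positive and negative interaction). The pseudocount gave 8 (4 higher, 4 lower) at 0.1, 8 (5 higher, 3 lower) at 0.5 and 7 (2 higher, 5 lower) at 5. No filter on low values gave 11 (3 higher, 8 lower), a mean of at least 5 FPKM 4 (2 and 2), quantile normalization 10 (5 higher, 5 lower), and the prior without trend and the robust prior 6 each (3 and 3). Median-of-ratios scaling and leaving out more genes with suspect zeros gave 5. Keeping the 7 genes with suspect zeros gave 12 (7 higher, 5 lower), among them Col1a1 at 10.36, Col1a2 at 10.06 and Ltf at -12.84, each with an exact 0 in a whole group. A further demand of at least 2-fold left 2 (1 higher, 1 lower). Library weights gave 5225 (2342 higher, 2883 lower) and moved the median interaction of cholesterol synthesis to -1.46 and of the unfolded protein response to -0.73. The cause was not tested for any of these.

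Leaving out 1 library at a time gave 0 to 1181 genes, with 0 to 531 higher and 0 to 650 lower. Without both diestrus libraries numbered 3 it was 1204 (574 higher, 630 lower). Leaving out the 2 libraries with the most Rn45s, an alternative chosen after seeing the data, gave 11 (5 higher, 6 lower).

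A replicate block on the number gave 462 genes (232 higher, 230 lower), a replicate block with numbers 1, 2 and 4 only 1012 (503 higher, 509 lower), and a replicate block within each stage, added after seeing the data, 270 (135 higher, 135 lower). Deviations of same-numbered WT and HIF2A cKO libraries correlated at 0.321, 0.115, 0.622 and 0.217 across genes for diestrus 1 to 4 and at 0.080, 0.096 and -0.047 for estrus 1, 2 and 4. The best match was the own number in 6 of 7 pairs, as a hint from the data. With the block, 8 genes of G2 and mitosis were called lower, and 5 with the block within each stage. All 4 diestrus correlations were over 0.1 and none of the estrus ones was. Since not every correlation was over 0.1 and the labels do not tie the numbers to animals or days, they were not taken to pair the libraries. The block counts were known when these correlations were read.

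Epas1, Hif1a, Esr1, Pgr and the genes of smallest p with all libraries kept their sign in every alternative run that tested them. Over the alternatives, 13 of these genes kept their side of the threshold in 290 cases, gained it in 58 and lost it in 39. The other genes named above were not part of this check. Among them Ebp, at 0.00 with all libraries, was below 0 without the diestrus libraries numbered 3. The highest cholesterol synthesis interaction was -0.06 there. Of the 12 lists described, the medians nearest 0 changed sign. Glycolysis (0.04) ran down to -0.08 and hypoxia (0.00) down to -0.09, both with library weights. Both were also below 0 without HIF2A cKO diestrus 3, at -0.03 and -0.04. List medians moved by less than the spread in 370 cases and by more in 2. Aqp4, AK215051, Lypd8, AK197526 and Foxm1 have no value under some alternatives because they fell below the filter. Precision is limited by 4 and 3 libraries a group, the spread at diestrus and the unknown depth.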
